A study of Mus musculus with 6 samples.

Results

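The genes described here are 10 that mark dendritic cells (DCs) or their maturation: Zbtb46, Flt3 and Itgax for identity, Ly75, Dpp4 and Xcr1 for antigen uptake or DC subsets, and Ccr7, Fscn1, Cd83 and Cd40 for maturation and migration. They were chosen by name, as every probe whose gene name in the array files equalled one of these symbols. This gave 20 probes for 10 of the 37325 named genes on the array. DCs are the antigen-presenting cells that prime naive T cells. Immature DCs take up antigen in tissues, and on maturation they raise the chemokine receptor CCR7, remodel their actin cytoskeleton, migrate to lymph nodes and show antigen to T cells together with co-stimulatory molecules. Culture of mouse bone marrow (BM) with granulocyte-macrophage colony-stimulating factor (GM-CSF) gives granulocytes, monocytes, macrophage-like cells and DC-like cells, and myeloid-derived suppressor cells (MDSCs), which restrain T cells, are grown from the same marrow with the same cytokine.

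RNA from 3 kinds of culture was hybridised to 6 one-colour mouse arrays, 2 per group. 6G- BM-MDSC were grown for 4 days with 40 ng/mL GM-CSF in tissue-culture-treated dishes, from marrow depleted of Ly-6G+ cells with magnetic beads. MDSC (conv.) were grown in the same way from whole marrow, and one label describes them as holding dendritic cells too. DCs were grown from whole marrow for 8 days with 20 ng/mL GM-CSF in non-treated dishes. All marrow came from female C57BL/6J mice aged 6 to 8 weeks. DCs thus differed from both MDSC groups in culture time, GM-CSF dose and dish, and the share of each in a difference from DCs cannot be told apart. The 6 arrays lay on 1 slide and were scanned once, with both MDSC groups in array row 1 and DCs in array row 2, so that array row and the difference from DCs cannot be told apart either. The image software called 55.6% to 59.9% of the probes on an array well above background.

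A level is given on a log2 scale relative to the 75th percentile of all probes on the same array, so that 0 stands for that percentile. A gene was represented by its brightest tested probe, and the levels of different genes were not compared, since probes differ in brightness. A gene was called higher or lower where limma gave a Benjamini-Hochberg adjusted p under 0.05 over all 21860 genes tested. Of the 10 DC genes, 9 were tested. Xcr1 was not, because its probe was not well above background on both arrays of any group. The lowest level called well above background, or floor, was -4.8 and -4.82 on the DC arrays. On the MDSC arrays it was lower, from -5.45 to -5.37. The part of this floor in differences from DCs at dim probes was not tested.

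Both MDSC cultures were lower than DCs in most of these genes, and were not distinguished from each other in any of them. In 6G- BM-MDSC, 6 of the 9 tested genes were called lower than in DCs and 1, Flt3, was called higher at its brightest probe. With the other Flt3 probe in its place the counts were 7 lower and 0 higher. Of all genes tested, 17.8% were called lower and 15% higher in that comparison, so that 45.8% of the calls were higher ones, or 59.5% under median scaling. In MDSC (conv.), 7 of 9 were called lower than in DCs and 0 higher, against 15.8% lower and 13.4% higher of all genes. The median difference from DCs over the 9 genes was -0.83 on the log2 scale in 6G- BM-MDSC and -0.85 in MDSC (conv.), beside medians over all genes of -0.04 and -0.03, and with the other Flt3 probe it was -0.88 in 6G- BM-MDSC and -0.85 in MDSC (conv.). These comparisons share the DC arrays. Between 6G- BM-MDSC and MDSC (conv.), 0 of 9 genes were called by limma, with 1 of 9 at an unadjusted p under 0.05, beside 10.8% of all genes, and the median difference was 0.11. Of all genes, 0.00915% were called lower and 0.00457% higher in 6G- BM-MDSC than in MDSC (conv.). Since RNA came from whole cultures, fewer cells of a type and less RNA per cell cannot be told apart in any of these values.

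The DC arrays lay above all 4 MDSC arrays in 8 of the 9 tested genes. Both arrays of 6G- BM-MDSC lay below both DC arrays in 39.2% of all genes, and both arrays of MDSC (conv.) did so in 38%. At the brightest Flt3 probe both arrays of each MDSC group lay above both DC arrays, as in 33.6% of all genes for 6G- BM-MDSC and in 33.2% for MDSC (conv.), and at the other Flt3 probe they lay below them, which made 9 of 9 genes.

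**Figure D1:**
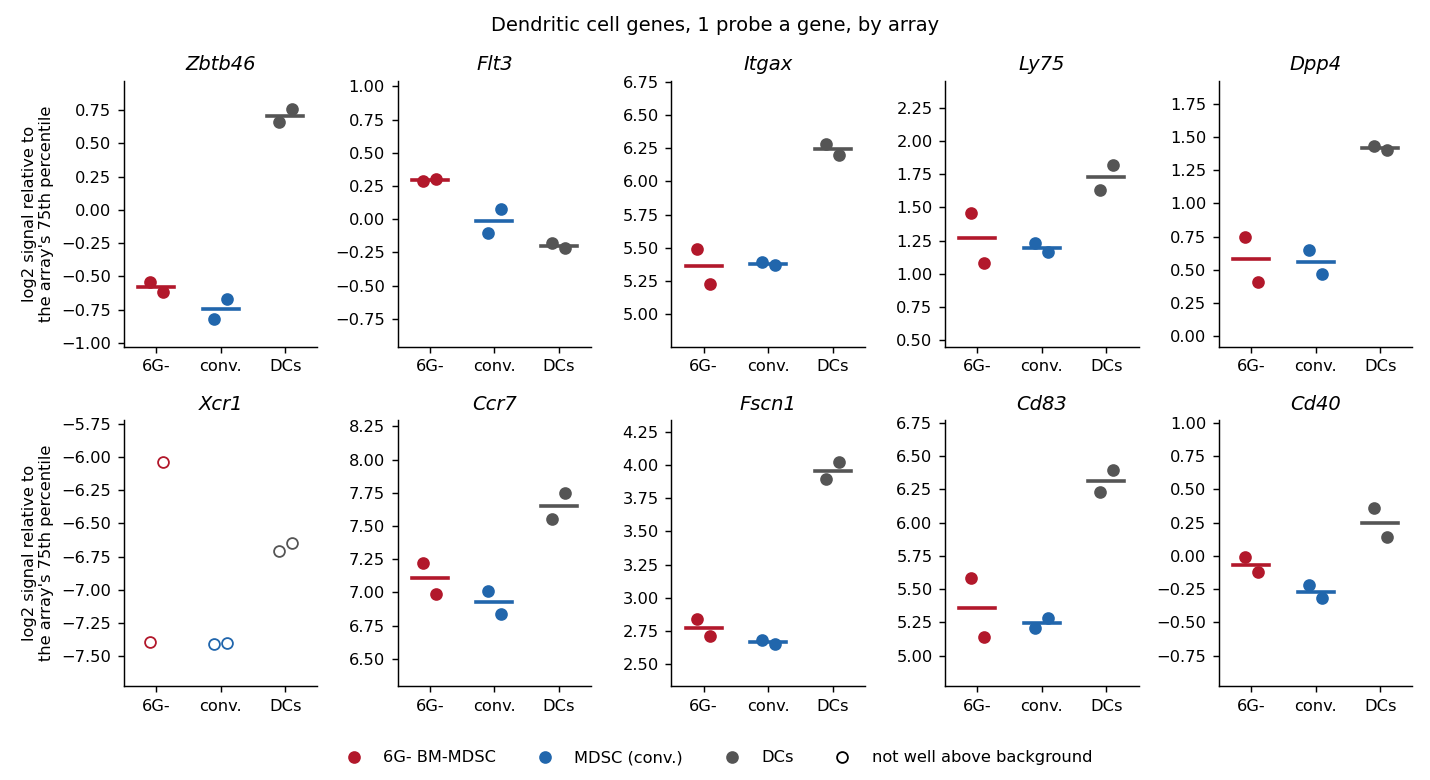
Level of each of the 10 genes on each of the 6 arrays (y axis, log2 signal relative to the array's 75th percentile; every panel spans the same range), with 6G- BM-MDSC, MDSC (conv.) and DCs from left to right, points for arrays and lines for group means. The DC points stand above all MDSC points in 8 genes, the points of the brightest Flt3 probe run the other way, and the open Xcr1 points were not well above background.

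Zbtb46, a zinc finger transcription factor that marks the conventional DC lineage, showed the largest difference from DCs among the tested genes in both MDSC groups. Its level was -0.54 and -0.62 in 6G- BM-MDSC, -0.82 and -0.67 in MDSC (conv.), and 0.66 and 0.76 in DCs. The MDSC arrays lay together and well below the DC arrays. Against DCs, Zbtb46 was 2.44-fold lower in 6G- BM-MDSC (log2 difference -1.29, SE 0.09, adjusted p = 0.00127) and 2.74-fold lower in MDSC (conv.) (-1.45, SE 0.09, adjusted p = 0.000947). The array held 4 Zbtb46 probes on the minus strand of chromosome 2, and each was called lower than in DCs in both MDSC groups. The difference was smallest at a probe 22873 bases upstream of the brightest, where it was -0.56 in 6G- BM-MDSC (adjusted p = 0.0289) and -0.57 in MDSC (conv.) (adjusted p = 0.03). The probe with the largest and the probe with the smallest difference are shown, because the size of the Zbtb46 result depends on which of them is read. The brightest, listed for an Ensembl transcript, lay at chr2:181122866-181122925. The other, listed for a RefSeq transcript of Zbtb46, lay at chr2:181145799-181145858 (mm9, as the files give it).
Zbtb46 probe with the largest difference: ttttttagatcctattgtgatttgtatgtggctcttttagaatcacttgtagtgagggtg
Zbtb46 probe with the smallest difference: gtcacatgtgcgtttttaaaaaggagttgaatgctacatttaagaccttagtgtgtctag

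Flt3 encodes the receptor for FLT3 ligand, the cytokine that drives DC development from marrow progenitors, and its brightest probe was the 1 probe of the set that was called higher in an MDSC group. Its brightest probe read 0.29 and 0.30 in 6G- BM-MDSC, -0.10 and 0.08 in MDSC (conv.), and -0.18 and -0.22 in DCs. The groups did not overlap, and the order ran from 6G- BM-MDSC at the top to DCs at the bottom. Flt3 was 1.41-fold higher in 6G- BM-MDSC than in DCs by this probe (0.50, SE 0.09, adjusted p = 0.0155). This call was lost without 6G- BM-MDSC replicate 1 (adjusted p = 0.063) or 2 (0.0719) and without DC replicate 1 (0.061) or 2 (0.0722). The difference of MDSC (conv.) from DCs was 0.20 (adjusted p = 0.164), and that of 6G- BM-MDSC from MDSC (conv.) was 0.30 (adjusted p = 0.378, unadjusted p = 0.02).

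The other Flt3 probe ran in the opposite direction. Its level was -4.41 and -4.19 in 6G- BM-MDSC, -3.39 and -3.60 in MDSC (conv.), and -3.35 and -3.26 in DCs, well above background on all 6 arrays. The 6G- BM-MDSC arrays were the lowest, and the MDSC (conv.) arrays lay just below the DC arrays. The probe was dim, and the floor was higher on the DC arrays, as given above. In a fit over all tested probes the difference of 6G- BM-MDSC from DCs was -1.0 at this probe (SE 0.12, adjusted p = 0.0053) and 0.50 at the brightest (adjusted p = 0.0167). Each probe therefore passed the test with its own sign, and no direction is given for the gene as a whole. Both probes lay on the minus strand of chromosome 5, the brightest at chr5:148142576-148142635 and the other at chr5:148174133-148174192 (mm9), 31497 bases upstream. The brightest is listed for a RefSeq transcript of Flt3, the other for a cDNA clone. They are shown because the sign of the Flt3 result turns on them.
Flt3 brightest probe: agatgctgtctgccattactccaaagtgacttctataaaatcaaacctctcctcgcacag
Flt3 other probe: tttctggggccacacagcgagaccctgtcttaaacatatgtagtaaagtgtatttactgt

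Itgax encodes CD11c, the integrin alpha chain used most often to identify mouse DCs, which macrophages can carry as well. Its level was 5.49 and 5.23 in 6G- BM-MDSC, 5.39 and 5.37 in MDSC (conv.), and 6.28 and 6.20 in DCs. Both MDSC groups overlapped each other and stood apart from DCs. Itgax was 1.84-fold lower in 6G- BM-MDSC than in DCs (-0.88, SE 0.11, adjusted p = 0.00525) and 1.81-fold lower in MDSC (conv.) than in DCs (-0.86, SE 0.11, adjusted p = 0.0061). All 3 Itgax probes were called lower in both MDSC groups. The other 2 gave differences of -1.24 and -1.09 in 6G- BM-MDSC, and -1.29 and -1.03 in MDSC (conv.).

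Ly75 encodes DEC-205, an endocytic receptor that carries antigen into the presentation pathway. Its level was 1.46 and 1.08 in 6G- BM-MDSC, 1.23 and 1.16 in MDSC (conv.), and 1.63 and 1.82 in DCs. The DC arrays were the highest, but the 6G- BM-MDSC arrays lay far apart, 1 on either side of the MDSC (conv.) arrays, and neither difference from DCs was called. It was -0.46 in 6G- BM-MDSC (SE 0.15, adjusted p = 0.0762) and -0.53 in MDSC (conv.) (SE 0.15, adjusted p = 0.0569). A dimmer Ly75 probe, 55989 bases upstream, was called lower in both groups, with differences of -0.73 in 6G- BM-MDSC (adjusted p = 0.00615) and -0.36 in MDSC (conv.) (adjusted p = 0.0441). Its levels ran from -4.01 to -3.15, and the higher floor of the DC arrays is a limit here too. Over 19 other settings of the processing, Ly75 was called lower than in DCs in 5 for 6G- BM-MDSC and in 8 for MDSC (conv.). These settings include the dimmer probe and the fits without 1 array. The brightest probe was itself called in 6G- BM-MDSC without that group's replicate 1 (-0.65, adjusted p = 0.0416), and in MDSC (conv.) without either 6G- BM-MDSC array (adjusted p = 0.0383 and 0.0377).

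Dpp4 encodes CD26, a dipeptidyl peptidase on the surface of type 1 conventional DCs and T cells, which in humans binds adenosine deaminase. Its level was 0.75 and 0.41 in 6G- BM-MDSC, 0.65 and 0.47 in MDSC (conv.), and 1.43 and 1.40 in DCs. The MDSC groups overlapped, below both DC arrays. Dpp4 was 1.78-fold lower in 6G- BM-MDSC than in DCs (-0.83, adjusted p = 0.0129) and 1.81-fold lower in MDSC (conv.) than in DCs (-0.85, adjusted p = 0.0128). Of its other 2 probes, 1, dim at levels of -4.59 to -3.55, was called lower in both groups (-0.73 and -0.81). At the other, listed for an Ensembl transcript, the differences were -0.40 (adjusted p = 0.121) and -0.20 (adjusted p = 0.403). The Dpp4 calls rest on both DC arrays: without DC replicate 1 the adjusted p was 0.0602 in 6G- BM-MDSC and 0.0599 in MDSC (conv.), without DC replicate 2 it was 0.0565 and 0.0578, and without MDSC (conv.) replicate 2 it was 0.079 in MDSC (conv.).

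Xcr1 encodes the chemokine receptor that sets type 1 conventional DCs apart from other DCs. Its single probe had processed intensities of 3.71 and 8.53 in 6G- BM-MDSC, 3.72 and 3.72 in MDSC (conv.), and 5.85 and 5.65 in DCs, and was not well above background on any of the 6 arrays. These values have no order, and Xcr1 RNA was not detectable on these arrays in any culture, DCs included. The probe lay at chr9:123761482-123761541 on the minus strand (mm9) and is shown because it is the 1 probe of the set with no measured level.
Xcr1 probe: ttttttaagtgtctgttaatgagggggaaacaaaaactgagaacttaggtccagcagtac

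**Figure D2:**
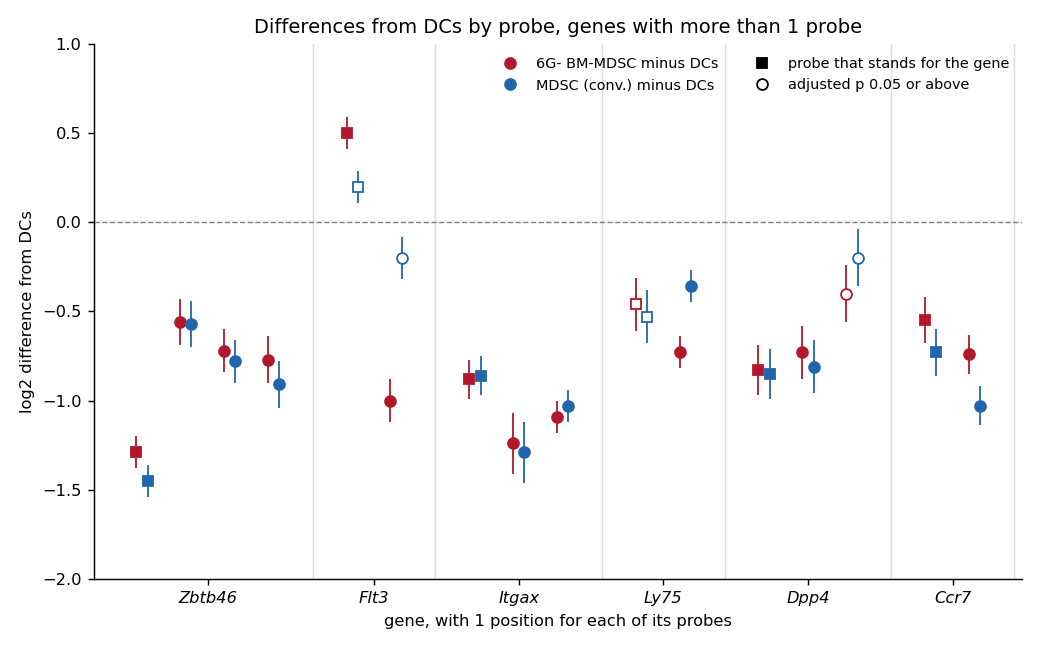
Difference of 6G- BM-MDSC (red) and MDSC (conv.) (blue) from DCs at every tested probe of the 6 genes with more than 1 probe (y axis, log2 difference; bars, SE), with squares for the probe that stands for the gene and open symbols for adjusted p of 0.05 or above. All probes lie below 0 except the brightest Flt3 probe, at 0.50 and 0.20.

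Of the maturation and migration genes, Ccr7, Fscn1 and Cd83 were called lower in both MDSC groups, and Cd40 in MDSC (conv.). Fscn1 encodes fascin, the actin-bundling protein of the dendrites of mature DCs. Its level was 2.84 and 2.71 in 6G- BM-MDSC, 2.68 and 2.65 in MDSC (conv.), and 3.89 and 4.02 in DCs. The gap to DCs was many times the spread within a group. Fscn1 was 2.26-fold lower in 6G- BM-MDSC than in DCs (-1.18, SE 0.09, adjusted p = 0.00145) and 2.44-fold lower in MDSC (conv.) than in DCs (-1.29, adjusted p = 0.00118).

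Cd83, a surface glycoprotein of mature DCs that stabilises MHC class II and CD86, read 5.58 and 5.14 in 6G- BM-MDSC, 5.21 and 5.28 in MDSC (conv.), and 6.23 and 6.40 in DCs. The 6G- BM-MDSC arrays were 0.43 apart, the widest gap within that group among the tested genes, and enclosed the MDSC (conv.) arrays. Cd83 was 1.94-fold lower in 6G- BM-MDSC than in DCs (-0.95, SE 0.16, adjusted p = 0.0137) and 2.09-fold lower in MDSC (conv.) than in DCs (-1.07, SE 0.16, adjusted p = 0.0108). Without DC replicate 2 the adjusted p was 0.066 in 6G- BM-MDSC and 0.0557 in MDSC (conv.). In MDSC (conv.) it was also 0.0589 and 0.0651 without replicate 1 and replicate 2 of that group.

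Ccr7, the receptor for CCL19 and CCL21 that guides mature DCs to lymph nodes, was bright in every culture. Its level was 7.22 and 6.99 in 6G- BM-MDSC, 7.01 and 6.84 in MDSC (conv.), and 7.55 and 7.75 in DCs, and no spot of any of these probes was marked as saturated. The MDSC groups overlapped, below both DC arrays. Ccr7 was 1.46-fold lower in 6G- BM-MDSC than in DCs (-0.55, SE 0.13, adjusted p = 0.0323) and 1.66-fold lower in MDSC (conv.) than in DCs (-0.73, SE 0.13, adjusted p = 0.0162). A neighbouring Ccr7 probe gave -0.74 in 6G- BM-MDSC (adjusted p = 0.0101) and -1.03 in MDSC (conv.) (adjusted p = 0.0043).

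The Ccr7 call at the brightest probe was the least stable of the set. In 6G- BM-MDSC it was lost whichever of the 6 arrays was left out, with differences of -0.67 to -0.43. It was also lost under median scaling (adjusted p = 0.0518), quantile normalization (0.0573) and the replicate number as a block (0.0516). A fit of only the arrays of 6G- BM-MDSC and DCs gave 0.0539. Student's t-test for each gene called none of the 9 genes after adjustment (0.175 for Ccr7). The methods name that test in general, but for the arrays they state only fold changes and gene set enrichment. In MDSC (conv.) the Ccr7 call was lost without MDSC (conv.) replicate 1, MDSC (conv.) replicate 2 or DC replicate 2. The direction was the same each time.

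Cd40, the co-stimulatory receptor through which T cells license DCs, had a level of -0.01 and -0.12 in 6G- BM-MDSC, -0.22 and -0.32 in MDSC (conv.), and 0.36 and 0.14 in DCs. The groups did not overlap, with MDSC (conv.) lowest and DCs highest. Cd40 was 1.43-fold lower in MDSC (conv.) than in DCs (-0.52, SE 0.11, adjusted p = 0.0237), a call lost without either MDSC (conv.) array (adjusted p = 0.0722 and 0.119) or without DC replicate 1 (0.0859). The difference of 6G- BM-MDSC from DCs was -0.31 (SE 0.11, adjusted p = 0.0813). The call in one MDSC group and not in the other does not show that they differ, since the difference between them was 0.21 (95% interval -0.07 to 0.48, adjusted p = 0.554).

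**Figure D3:**
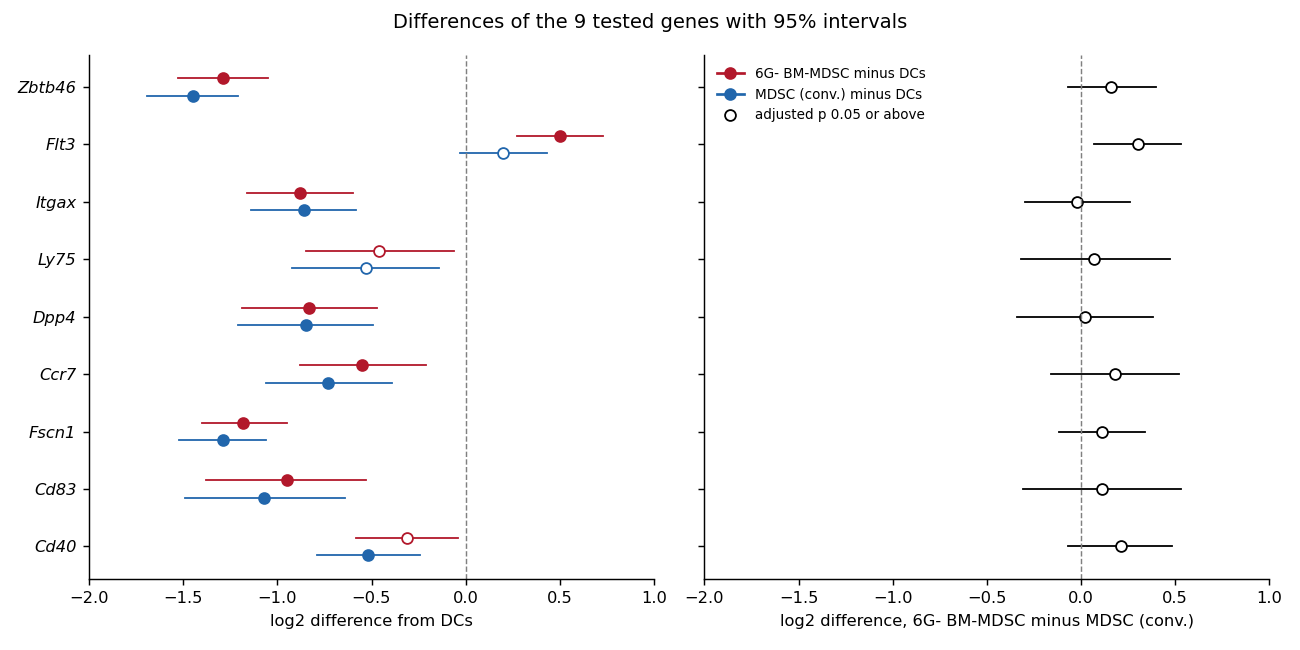
Log2 differences of the 9 tested genes with 95% intervals. The left panel gives 6G- BM-MDSC (red) and MDSC (conv.) (blue) minus DCs, the right panel 6G- BM-MDSC minus MDSC (conv.), and open symbols mark adjusted p of 0.05 or above. Zbtb46 and Fscn1 lie farthest from 0 on the left, and all symbols on the right are open.

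The comparison between the MDSC groups sets marrow depleted of Ly-6G+ cells against whole marrow. The methods describe antibody staining and magnetic separation for the depleted marrow only, and the 6G- BM-MDSC arrays lay in array columns 3 and 4, the MDSC (conv.) arrays in columns 1 and 2, so that depletion, handling and array position cannot be told apart. None of the 9 genes was called in it by limma, and Student's t-test for each gene gave 0 of 9 at an unadjusted p under 0.05. The differences of 6G- BM-MDSC from MDSC (conv.) ran from -0.02 in Itgax to 0.30 at the brightest Flt3 probe, and with the other Flt3 probe from -0.81 there to 0.21 in Cd40. The dimmer Ly75 probe gave -0.37. In 4 of 9 genes (Zbtb46, Flt3, Fscn1 and Cd40) the lower 6G- BM-MDSC array exceeded the higher MDSC (conv.) array, against 22.4% of all genes, and with the other Flt3 probe, where the order was the opposite, in 3 of 9. The 95% interval of the difference held 0 in 8 of 9 genes, among them Zbtb46 (-0.07 to 0.40), Fscn1 (-0.12 to 0.34), Itgax (-0.30 to 0.26), Ccr7 (-0.16 to 0.52) and Cd83 (-0.31 to 0.53), and lay above 0 at the brightest Flt3 probe (0.07 to 0.53). In 6G- BM-MDSC the array labelled replicate 1 read above replicate 2 in 8 of the 9 genes, while this held for 49.9% of all genes. Without 6G- BM-MDSC replicate 1 the differences from MDSC (conv.) were -0.12 in Ly75, -0.15 in Dpp4 and -0.10 in Cd83, with the sign turned.

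Promoter sequences, from 250 bases before to 50 bases after the gene start, were found in the RefSeq table (GRCm38.p6) for 7 of the 10 genes: Zbtb46, Flt3, Itgax, Ly75, Dpp4, Xcr1 and Fscn1. They were searched on both strands for the AP-1 motif TGACTCA (whose reverse complement is TGAGTCA), the PU.1 motif GAGGAAGT, the ETS-IRF composite GGAANNGAAA, the interferon-stimulated response element GAAANNGAAA and the NF-kB motif. The ETS-IRF and interferon-stimulated elements can overlap. The AP-1 motif was found in 2 of the 7, Zbtb46 and Itgax, and in 5.2% of all 32851 promoters of the table. The interferon-stimulated element was found in Dpp4 alone (3.44% of all promoters). PU.1 (3.2%), ETS-IRF (2.72%) and NF-kB (8.46%) motifs were found in none of the 7. A match of letters is a description and not a binding site. The 2 stretches with the AP-1 motif are shown, with the motif in capitals. Both genes were called lower in both MDSC groups at every probe. So was Fscn1 at its only probe, and its promoter held none of these motifs. In Zbtb46 (chr2:181424339-181424638, minus strand) the motif ended 54 bases before the listed gene start. In Itgax (chr7:128129300-128129599, plus strand) it ended 49 bases before it. The 250 bases before the listed Zbtb46 start end in a run of pyrimidines followed by CAG, as the end of an intron does. The Zbtb46 stretch may therefore be intron and its motif may lie outside a promoter, which was not tested.
Zbtb46 promoter: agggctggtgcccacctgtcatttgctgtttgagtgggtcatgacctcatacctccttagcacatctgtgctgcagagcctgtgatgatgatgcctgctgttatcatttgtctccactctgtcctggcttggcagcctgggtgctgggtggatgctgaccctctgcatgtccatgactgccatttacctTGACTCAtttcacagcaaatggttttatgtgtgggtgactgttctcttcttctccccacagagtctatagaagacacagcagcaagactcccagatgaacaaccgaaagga
Itgax promoter: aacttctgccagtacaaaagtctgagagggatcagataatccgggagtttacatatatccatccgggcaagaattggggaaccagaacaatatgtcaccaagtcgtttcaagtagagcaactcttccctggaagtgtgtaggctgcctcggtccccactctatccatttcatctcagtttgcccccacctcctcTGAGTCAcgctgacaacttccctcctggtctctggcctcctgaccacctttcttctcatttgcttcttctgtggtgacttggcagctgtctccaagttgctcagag

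The genes whose pattern over the 6 arrays lay closest to Zbtb46, by root mean square distance after each gene was centred on its mean, were Slc4a3 (0.0622), an unnamed Ensembl transcript (0.0687) and Ndrg4 (0.0736), all on the log2 scale. Ndrg4, for example, was lower than in DCs by 1.15 in 6G- BM-MDSC and by 1.42 in MDSC (conv.). Closest to Ccr7 were Cd99 (0.0247), Zfp108 (0.0388) and Rcbtb2 (0.0434). Closest to the brightest Flt3 probe were a cDNA clone (0.0187), Fam20c (0.0313) and Gm14322 (0.0356). With 6 arrays in 3 groups, such closeness is a description only.

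Transcription factors of DCs moved mostly with the set. Of 14 tested, 6G- BM-MDSC had 8 called lower and 3 higher than DCs (median -0.42), and MDSC (conv.) had 8 lower and 2 higher (median -0.52). Irf8, required for type 1 conventional DCs, differed from DCs by -1.26 in 6G- BM-MDSC (adjusted p = 0.00379) and by -1.45 in MDSC (conv.) (adjusted p = 0.00269). Irf4, required for type 2 conventional DCs, differed by -0.96 and -1.08 in the same order of groups, and the repressor Bcl6 by -0.83 and -0.61. Relb, the NF-kB subunit of DC maturation, was lower by 0.57 in 6G- BM-MDSC and by 0.80 in MDSC (conv.). Ikzf1, encoding the lymphoid and progenitor factor Ikaros, was higher than in DCs by 0.60 in 6G- BM-MDSC and by 0.77 in MDSC (conv.).

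Among genes shared by conventional DCs, 11 of 19 tested were called lower and 4 higher in 6G- BM-MDSC against DCs (median -0.62), and in MDSC (conv.) 11 were lower and 2 higher (median -0.75). The adhesion-type G protein-coupled receptor gene Adgrg5 had the largest difference, at -2.58 in 6G- BM-MDSC and -2.44 in MDSC (conv.). Cd207, which encodes the C-type lectin langerin, differed by -0.96 and -1.20, the SLAM family receptor gene Slamf7 by -1.14 and -1.04, and Haao, an enzyme of tryptophan breakdown, by -1.12 and -0.95. Kit, the stem cell factor receptor of progenitors and mast cells, was higher than in DCs by 0.77 in 6G- BM-MDSC and by 1.1 in MDSC (conv.).

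Genes of mature and migratory DCs other than the 10 were called lower more often than higher in both MDSC groups. Of 32 tested, 18 were called lower and 2 higher in 6G- BM-MDSC than in DCs (median -0.53), and 21 lower and 0 higher in MDSC (conv.) than in DCs (median -0.66). Il12b, the p40 subunit of interleukin-12, read -1.99 and -1.66 in 6G- BM-MDSC, -2.57 and -2.06 in MDSC (conv.), and 0.64 and 0.72 in DCs. It thus lay far lower on all 4 MDSC arrays, by 2.50 in 6G- BM-MDSC (adjusted p = 0.00179) and by 2.99 in MDSC (conv.) (adjusted p = 0.00115). The calcium channel subunit gene Cacnb3 differed from DCs by -1.05 and -1.28, the adenylyl cyclase gene Adcy6 by -1.09 and -1.22, and Marcks, a substrate of protein kinase C, by -1.01 and -0.89. The co-stimulatory ligand Cd86 differed by -0.72 in 6G- BM-MDSC (adjusted p = 0.00763) and by -0.75 in MDSC (conv.) (adjusted p = 0.00714). The 2 genes called higher in 6G- BM-MDSC, named after their values were seen, were the death receptor gene Fas (0.47) and Marcksl1 (0.53). Between the MDSC groups 0 of these 32 genes were called, and 7 (21.9%) had an unadjusted p under 0.05, beside 10.8% of all genes. The median difference was 0.14, with 25 of 32 above 0, beside 50.9% of all genes.

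Subset markers were called in both directions. Of 13 tested genes of type 1 conventional DCs, 5 were called lower and 4 higher than in DCs, in 6G- BM-MDSC (median -0.42) as in MDSC (conv.) (median -0.41). Cadm1 and Cxcr3, called higher in both groups, and Gpr141b, called higher in MDSC (conv.), were not well above background on both DC arrays. These genes passed the filter only through the MDSC groups, where they were high, so their direction is no support for a split. Clec9a, the receptor of that subset for dead cells, read -1.33 and -1.13 in 6G- BM-MDSC, -1.71 and -1.51 in MDSC (conv.), and -2.76 and -2.89 in DCs. Both MDSC groups were higher than DCs, by 1.59 in 6G- BM-MDSC (adjusted p = 0.00141) and by 1.21 in MDSC (conv.) (adjusted p = 0.00301). The adhesion molecule Cadm1 was higher by 2.18 in 6G- BM-MDSC and by 1.81 in MDSC (conv.), with 1 of the 2 DC arrays well above background. The chemokine receptor gene Cxcr3 was not well above background on either DC array, so that only a bound could be given. Cxcr3 in 6G- BM-MDSC was at least 2.72-fold higher (adjusted p = 0.00202) and in MDSC (conv.) at least 2.78-fold higher (adjusted p = 0.00196), taking for DCs the probe's own signal, which on both arrays exceeded the dimmest signal that the software called well above background. The RNA sensor Tlr3 was lower, by 0.96 in 6G- BM-MDSC, where 1 of the 2 arrays was well above background, and by 0.60 in MDSC (conv.). Its levels were dim, from -5.08 to -3.91, beside the higher floor of the DC arrays. Also called lower were Wdfy4 (-0.74 in 6G- BM-MDSC and -0.70 in MDSC (conv.)), Itgae (-0.44 and -0.82), Cd24a (-0.42 and -0.49) and Tlr11 (-0.46 and -0.42). These were named after their values were seen. Over the list, 5 genes were called lower in both groups and 3 higher in both.

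Of 13 tested genes of type 2 conventional and monocyte-derived DCs, 7 were called lower and 3 higher in 6G- BM-MDSC than in DCs (median -0.47), and 6 lower and 2 higher in MDSC (conv.) (median -0.27). Clec4a2, among the 3 called higher in 6G- BM-MDSC, was not well above background on either DC array. It passed the filter only through the MDSC groups. Il1r2 and Ltb, named after their values were seen, were well above background on both arrays of each group and were called higher in both MDSC groups. Il1r2 was higher than in DCs by 0.64 in 6G- BM-MDSC and by 0.66 in MDSC (conv.), and Ltb by 0.96 and 0.51. Epcam, an adhesion molecule also found on Langerhans cells, differed by -3.05 in 6G- BM-MDSC and by -2.29 in MDSC (conv.). Cd209a, the mouse DC-SIGN marker of monocyte-derived DCs, differed by -1.17 and -1.02, its relative Cd209d by -1.35 and -1.16, and the lectin gene Clec4a4 by -0.96 and -1.57.

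The list of ligands and signalling partners of the 10 genes also holds the cytokine receptor chain genes Csf2ra, Csf2rb and Csf2rb2. Of 13 tested, 3 were called lower and 3 higher in 6G- BM-MDSC than in DCs (median 0.05), beside 17.8% and 15% of all genes. In MDSC (conv.) 4 were lower and 3 higher (median -0.07), beside 15.8% and 13.4% of all genes. Counts this small, beside such shares, are not read as a result about these genes. Map3k14 and Traf3, the kinase of the non-canonical NF-kB pathway downstream of CD40 and the adaptor that promotes its breakdown, moved apart. Map3k14 was lower than in DCs by 0.55 in 6G- BM-MDSC (adjusted p = 0.00985) and by 0.83 in MDSC (conv.) (adjusted p = 0.00334), while Traf3 was higher by 0.80 (adjusted p = 0.00317) and by 0.63 (adjusted p = 0.00661). Ada, the adenosine deaminase that human CD26 binds, was higher by 1.12 in 6G- BM-MDSC and by 1.50 in MDSC (conv.). Csf2rb2, a beta chain that in mice pairs with the interleukin-3 receptor, was lower by 0.54 and 0.57. Of the 104 genes tested in these 6 lists, 0 were called by limma between 6G- BM-MDSC and MDSC (conv.), and 18 (17.3%) had an unadjusted p under 0.05, beside 10.8% of all genes.

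**Figure D4:**
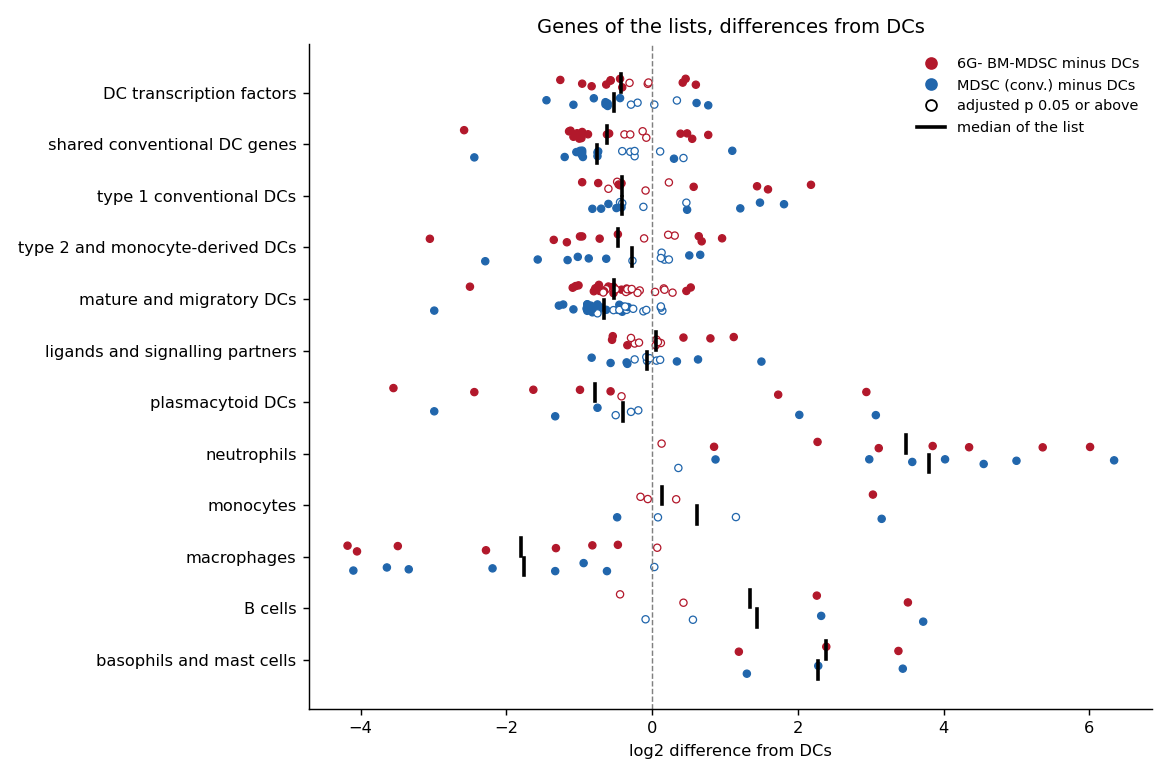
Difference from DCs (x axis, log2) of each tested gene of the DC lists and of the lists for other cell types, for 6G- BM-MDSC (red, upper line of each pair) and MDSC (conv.) (blue, lower line), with open symbols for adjusted p of 0.05 or above and black bars for list medians. The mature and migratory DC genes lie mostly below 0 (medians -0.53 and -0.66), the neutrophil genes above it and the macrophage genes below it.

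Markers of neutrophils and macrophages differed from DCs by more than the DC genes did, and the part of other cell types in the results above was not tested. Of 8 neutrophil genes, 7 were called higher in each MDSC group than in DCs (median 3.48 in 6G- BM-MDSC and 3.79 in MDSC (conv.)). Their summed level, on a linear scale where 1 is the array's 75th percentile, was 822 and 1030 in 6G- BM-MDSC, 1070 and 1040 in MDSC (conv.), and 459 and 440 in DCs. Each such sum leans on the brightest genes of its list, here S100a8 and S100a9 (7.06 and 8.23 in DC replicate 1). S100a8 differed from DCs by 0.85 in 6G- BM-MDSC and 0.87 in MDSC (conv.), and S100a9 was not called (0.13 and 0.36). The sums therefore understate the differences of most neutrophil genes. Ly6g, the antigen used for depletion, read 1.71 and 1.86 in 6G- BM-MDSC, 1.95 and 1.96 in MDSC (conv.), and -1.94 and -2.19 in DCs, and the difference between the MDSC groups was -0.17 (adjusted p = 0.626). Of the 8 neutrophil genes 7 had a difference below 0 between the MDSC groups and 0 were called by limma. An unadjusted p under 0.05 was found for 3, Cxcr2 (-0.71, adjusted p = 0.212), Ngp (-0.46, adjusted p = 0.302) and Retnlg (-0.33, adjusted p = 0.414), of which Cxcr2 and Ngp were named after their values were seen. Of 8 macrophage genes, 7 were called lower in each MDSC group than in DCs (medians -1.80 and -1.76). Their summed level was 100 and 97.3 in 6G- BM-MDSC, 91 and 99.7 in MDSC (conv.), and 162 and 181 in DCs. The complement gene C1qa differed most, by -4.18 in 6G- BM-MDSC and by -4.10 in MDSC (conv.). Of 4 monocyte genes, 1, Ly6c2, was called higher in both MDSC groups, by 3.03 and 3.15, and Csf1r was called lower in MDSC (conv.) by 0.48. Of 4 B cell genes 2 were called higher in each MDSC group, with summed levels of 1.17 and 1.16 in 6G- BM-MDSC, 1.28 and 1.31 in MDSC (conv.), and 0.262 and 0.256 in DCs. All 3 basophil and mast cell genes were called higher in each MDSC group, with summed levels of 43.1 and 43.5 in 6G- BM-MDSC, 45.5 and 45.5 in MDSC (conv.), and 8.53 and 6.02 in DCs. Of 4 T and NK cell genes 2 were tested, and Cd3g was called lower in both MDSC groups, while Klrb1c and Ncr1 were not well above background on both arrays of any group.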

How the data were processed

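Total RNA was labelled with cyanine 3 by the authors and hybridised to Agilent 8x60K mouse arrays. The deposited processed intensity, on a linear scale, was background-subtracted by Agilent Feature Extraction (version 10.7.3.1 in the file headers, 10.5.1.1 in the submitters' processing notes), without scaling between arrays. Deposited scanner files were read in R 4.3.3. Control probes and spots marked as outliers were left out, spots of a probe were averaged, and log2 of the intensity minus each array's 75th percentile (560.2 to 633.3) was taken. A probe was tested if well above background on both arrays of at least 1 group (33482 of 56605 probes). Names of 58.3% of probes were matched through RefSeq accessions, and others kept the files' name. Groups were compared with limma 3.58.1 (lmFit, eBayes) in 1 fit to all 6 arrays with group as the only factor (3 residual degrees of freedom). The labels do not say whether replicates were separate cultures, so p-values measure only the spread between these samples, and 2 arrays per group limit the precision. The members and lists were chosen with earlier results of these data known. Named list genes were up to 4 per list. They were those with the largest mean difference from DCs among genes called in both comparisons with DCs, otherwise the brightest. Relb, Kit, Cd86, Fas, Marcksl1, Wdfy4, Itgae, Cd24a, Tlr11, Il1r2 and Ltb were added after their values were seen. Replicate numbers were not taken as pairs, since the labels do not tie them to a shared animal or day. The exon or untranslated region of a probe was not analysed here.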

Additional observations from a re-analysis of the deposited data

How the results depend on the processing

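The calls against DCs rest on 2 arrays per group, and where an array was left out the lone array of its group was assumed to vary like the others. Leaving out 1 array gave 3 to 6 members called lower and 0 to 1 higher in 6G- BM-MDSC against DCs, and 3 to 8 lower and 0 higher in MDSC (conv.) against DCs. Over all genes it gave 1722 to 2690 higher and 1928 to 3180 lower in 6G- BM-MDSC against DCs, 1388 to 2361 higher and 1277 to 2926 lower in MDSC (conv.) against DCs, and 1 to 66 higher and 1 to 78 lower between the MDSC groups. The Zbtb46, Itgax and Fscn1 calls against DCs held at each such omission. Student's t-test, with its own spread for each gene, is not stated by the methods for the arrays. At an unadjusted p under 0.05 it gave 4 members lower and 1 higher for 6G- BM-MDSC against DCs. The share of all genes in either direction was 34.3%. For MDSC (conv.) against DCs it gave 8 members lower, beside 32.4% of all genes. The t-test gave 0 members lower and 0 higher after Benjamini-Hochberg. After adjustment it called 42 genes higher and 31 lower in 6G- BM-MDSC against DCs, 4 higher and 4 lower in MDSC (conv.) against DCs, and 0 and 0 between the MDSC groups. Without a filter on dim probes 8745 genes were lower in 6G- BM-MDSC and 8683 in MDSC (conv.) against DCs, in place of 3891 and 3459. Between the MDSC groups 0 were lower.

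Between the MDSC groups, 7 genes were lower under normexp, 0 higher and 0 lower when only probes bright on all 6 arrays were kept, 9 higher and 45 lower under an intensity-dependent prior, and 1 lower in a fit of only those 2 groups, and 0 members in each. Median scaling made 59.5% of the genes called in 6G- BM-MDSC against DCs higher ones, in place of 45.8%, and gave Itgax 0.04 between the MDSC groups. Normexp made 12.5% of the genes called between the MDSC groups higher ones, in place of 33.3%. Averaged over its probes, Flt3 was -0.25 between the MDSC groups, -0.25 in 6G- BM-MDSC and 0.00 in MDSC (conv.) against DCs, so that 0 members were higher, and Ly75 was -0.15 and Dpp4 -0.03 between the MDSC groups. The other probe by itself gave Flt3 -0.81 between the MDSC groups, -1.0 in 6G- BM-MDSC and -0.20 in MDSC (conv.) against DCs, and, between the MDSC groups, Itgax 0.05, Ly75 -0.37 and Dpp4 -0.20. Between the MDSC groups, leaving out 1 array gave -0.15 to 0.19 in Dpp4, -0.12 to 0.26 in Ly75, -0.10 to 0.33 in Cd83 and -0.15 to 0.10 in Itgax, so that the sign turned. The cause was not tested. With the replicate number as a block, Ccr7 in 6G- BM-MDSC against DCs had an adjusted p of 0.0516 and 5 members were lower, and no other member's call changed; same-numbered arrays correlated at 0.10, 0.11 and 0.05 in their deviations.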

Other observations

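Genes of plasmacytoid DCs, the interferon-producing DC lineage, were called in both directions. Of 8 tested, 5 were called lower and 2 higher in 6G- BM-MDSC against DCs, beside 17.8% and 15% of all genes. In MDSC (conv.) 3 were lower and 2 higher, beside 15.8% and 13.4% of all genes. With so few genes beside such shares, the higher calls are not read as a result about this list. Klk1, a kallikrein, differed from DCs by -3.55 in 6G- BM-MDSC and by -2.99 in MDSC (conv.), and the antiviral gene Bst2 by -1.63 and -1.33. Ly6d, a marker of lymphoid-lineage progenitors, was higher by 2.94 and 3.07, and the chemokine receptor gene Ccr9 by 1.73 and 2.02. Siglech, a lectin of these cells named after its values were seen, read 4.01 and 3.37 in 6G- BM-MDSC, 5.56 and 5.72 in MDSC (conv.), and 6.13 on the 1 DC array with a value, the other DC spot having been marked as an outlier. Between the MDSC groups its log2 difference was -1.95, with an unadjusted p of 0.00144 and an adjusted p of 0.233 by limma, and was not called. All 8 genes of the list had a difference below 0 in that comparison (median -0.29), while 50.9% of all genes lay above 0. An unadjusted p under 0.05 by limma was found for 4 of the 8 (50%), beside 10.8% of all genes, and 0 were called.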
